A study of Homo sapiens with 44 samples.

Results

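The genes described here are 42 genes of the cell cycle, taken by their symbols from the 40663 symbols measured in Ccd-18Co, a line of fibroblasts grown out of healthy human colon tissue. They comprise 25 genes of mitosis, 13 genes of DNA replication and 4 regulators of G1. Of the 42 genes, 38 had enough counts to be tested, among 9513 genes tested in all. The others, AURKB, PLK1, MCM4 and CDT1, are given by their counts.

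Bulk RNA-seq was performed on 44 libraries, 4 for each of 11 groups. Every group was starved of serum for 72 h. The cells were then left unstimulated, or received for 24 h IL-1β, TNF, IL-17A, IFNα, IFNγ, IL-6, OSM, IL-22, IL-13 or TGF-β1. The labels give 10 ng/ml for each cytokine other than IL-1β, which was used at 0.1 ng/ml. A figure legend of the study gives a lower dose of IL-1β. All libraries came from the same cell line, and the labels do not say whether replicates were separate cultures, so p-values measure the spread between these samples.

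A cell that divides copies its DNA in S phase and separates the copies in mitosis. Genes of the licensing and replication machinery, such as those of the MCM helicase, are transcribed from late G1 under E2F factors. Genes of the spindle, the kinetochore and cytokinesis are transcribed later, in G2 and mitosis, and many are repressed in resting cells by the DREAM complex, which binds a promoter element known as the CHR. Serum withdrawal is a common way to bring cultured fibroblasts into rest, and the share of fibroblasts in cycle bears on how stroma expands in inflamed tissue. In bulk RNA, fewer cells in cycle and less RNA of a gene per cell cannot be told apart.

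The promoters differed between both large classes in the letters they hold. In the 250 bases before the start site of RefSeq (build GRCh38.p14), windows were given for 32 of the 42 genes, and not for TTK, KNL1, TPX2, AURKA, BIRC5, UBE2C, MCM4, MCM5, CCNE2 and CCND1. Both strands were searched for the CHR letters TTTGAA, for the NF-Y box CCAAT and for the E2F-type letters TTTCCCGC, TTTCGCGC, TTTGCCGC and TTTGGCGC. TTTGAA stood in 57.1% of 21 windows of mitosis genes, in 6.67% of 15 windows of replication genes and in 13.3% of all 35116 windows. The order was the opposite for the E2F-type letters, with 9.52% of mitosis windows, 46.7% of replication windows and 2.79% of all windows. CCAAT was frequent in both, with 85.7% of mitosis windows and 80% of replication windows against 32% of all. These matches describe letters and do not show that a factor bound there.

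The promoters of 6 genes, free of annotated exons, are shown, because they hold the letters that differ between the classes, RRM1 being the exception among replication genes. They are written in the direction of the gene, with the letters searched for, on either strand, in capitals, so that TTCAAA marks a match of the first kind on the opposite strand and ATTGG one of the second. The windows of mitosis genes lay at chr17:40417897-40418146 on the minus strand for TOP2A, at chr10:60778081-60778330 on the plus strand for CDK1 and at chr10:128126424-128126673 on the minus strand for MKI67.
TOP2A: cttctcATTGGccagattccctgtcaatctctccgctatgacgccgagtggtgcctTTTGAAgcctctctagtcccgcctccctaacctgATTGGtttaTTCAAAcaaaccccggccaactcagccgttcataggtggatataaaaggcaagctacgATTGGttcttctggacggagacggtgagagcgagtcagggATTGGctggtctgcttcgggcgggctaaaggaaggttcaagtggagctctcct
CDK1: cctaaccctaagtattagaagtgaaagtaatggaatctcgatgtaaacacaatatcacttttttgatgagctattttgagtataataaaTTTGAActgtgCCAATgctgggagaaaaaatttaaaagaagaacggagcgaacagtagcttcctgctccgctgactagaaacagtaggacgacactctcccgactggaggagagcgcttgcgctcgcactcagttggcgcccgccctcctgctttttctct
MKI67: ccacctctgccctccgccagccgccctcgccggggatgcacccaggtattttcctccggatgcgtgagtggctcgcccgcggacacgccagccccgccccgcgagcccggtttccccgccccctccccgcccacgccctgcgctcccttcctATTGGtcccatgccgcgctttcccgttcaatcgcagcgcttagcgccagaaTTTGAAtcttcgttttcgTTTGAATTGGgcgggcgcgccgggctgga
TOP2A, the topoisomerase that untangles sister chromatids, has TTTGAA on both strands and 4 copies of CCAAT. In MKI67, which encodes the proliferation marker Ki-67, a TTTGAA match 24 to 29 bases before the start runs into an ATTGG. CDK1, the kinase that drives entry into mitosis, has 2 windows, of which the first is printed. The other holds E2F-type letters, and NUSAP1 was the only further mitosis gene with them. The windows of replication genes lay at chr2:135876444-135876693 on the minus strand for MCM6, at chr16:85688955-85689204 on the minus strand for GINS2 and at chr11:4094435-4094684 on the plus strand for RRM1.
MCM6: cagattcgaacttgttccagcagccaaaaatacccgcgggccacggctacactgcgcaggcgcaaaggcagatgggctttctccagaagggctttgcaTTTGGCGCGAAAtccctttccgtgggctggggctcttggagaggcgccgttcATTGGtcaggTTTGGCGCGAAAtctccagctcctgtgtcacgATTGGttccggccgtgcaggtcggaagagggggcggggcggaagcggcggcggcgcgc
GINS2: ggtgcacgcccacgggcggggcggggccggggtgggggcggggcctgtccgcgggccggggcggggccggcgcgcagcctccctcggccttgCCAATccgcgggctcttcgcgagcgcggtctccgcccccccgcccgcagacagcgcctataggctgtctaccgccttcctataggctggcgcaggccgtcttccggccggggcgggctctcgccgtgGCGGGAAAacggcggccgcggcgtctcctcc
RRM1: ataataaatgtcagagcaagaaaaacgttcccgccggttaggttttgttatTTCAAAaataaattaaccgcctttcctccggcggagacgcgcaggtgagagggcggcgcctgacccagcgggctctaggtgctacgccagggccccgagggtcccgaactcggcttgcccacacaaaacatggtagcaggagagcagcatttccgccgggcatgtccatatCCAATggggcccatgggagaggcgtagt
In MCM6, a subunit of the replicative helicase, the E2F-type letters stand on both strands at 2 places, overlapping each other. GINS2, which is needed to fire origins, has 1 such match, 24 to 31 bases before the start. RRM1, the large subunit of ribonucleotide reductase, is the only replication gene with a window that held TTTGAA.

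Libraries held 742173 to 2213424 counts (median 1480883), of which the 42 genes took 0.154%. A count of 3, taken here as the lower limit of measurement, equalled 1.39 to 3.85 CPM (the count scaled for library depth) depending on the library, for counting error only. All 10 fibroblast markers were measured, with a summed level of 17408 to 52507 CPM, whereas EPCAM, MUC2, PTPRC, CD3E, PECAM1 and KDR, which mark epithelial, leukocyte and endothelial cells, were at or near 0. Of the epithelial markers, VIL1 (mean 10.6 CPM, highest 26.6) and KRT18 (mean 8.55 CPM, highest 31.3) were each at 0 in only 1 library. The summed levels were 4.81 to 40.6 CPM over 8 epithelial, 0 to 73.8 over 8 leukocyte and 0 to 2.65 over 5 endothelial markers. CD68 rose after both interferons, from 2.87 ± 3.32 CPM (SD, n = 4) to 59.1 ± 16.7 after IFNα and 13.9 ± 5.10 after IFNγ, and its part in the results below was not tested.

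Of the 10 cytokines, 5 lowered genes of the list. Calls rest on edgeR's quasi-likelihood test over all 44 libraries and need an adjusted p under 0.05. IFNα lowered 21 of 38 genes, or 55.3%, against 4.86% of all genes tested, and IL-13 lowered 20, or 52.6%, against 2.4%. TGF-β1 lowered 10 (26.3%, against 3.08%), IFNγ 9 (23.7%, against 5.13%) and OSM 7 (18.4%, against 2.54%). Falls of more than 1.5 on the log2 scale were counted in 18 genes after IFNα (background 1.52%), 15 after IL-13 (1.2%), 3 after IFNγ (1.14%), 2 after OSM (0.767%) and 1 after TGF-β1 (1.06%). CDKN1A rose after IFNα and CCND1 after IFNγ. Each was 2.63% of the members tested, where 4.99% and 5.52% of all genes rose. No member rose after OSM, IL-13 or TGF-β1, with 1.42%, 1.53% and 2.61% of all genes higher. At these shares, so few rises among 38 genes are not read as a difference from genes at large.

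The number of members called did not follow the number of genes called in all. TNF changed 11.5% of all genes tested and IL-1β 7.38%, more than OSM or IL-13, but edgeR called 0 of the 38 cell cycle genes after either. At an unadjusted p under 0.05, 4 of them passed after TNF and 3 after IL-1β, and DESeq2 called 0 and 2, the latter being CCND1 and MCM6, both lower. IL-17A changed 1.52% of all genes, IL-6 0.0105% and IL-22 0%. After these 3, edgeR called 0 members, with 3, 1 and 6 at an unadjusted p under 0.05. At such shares, 0 of 38 is not read as a difference from genes at large. DESeq2 also called 0 after IL-17A, IL-6 and IL-22, but gave no adjusted p for 6 members after IL-17A and 25 after IL-22. Leaving out the unstimulated replicate 1 gave 2 calls after TNF, and leaving out the unstimulated replicate 3 or the IL-1β replicate 4 gave 1 after IL-1β.

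**Figure D1:**
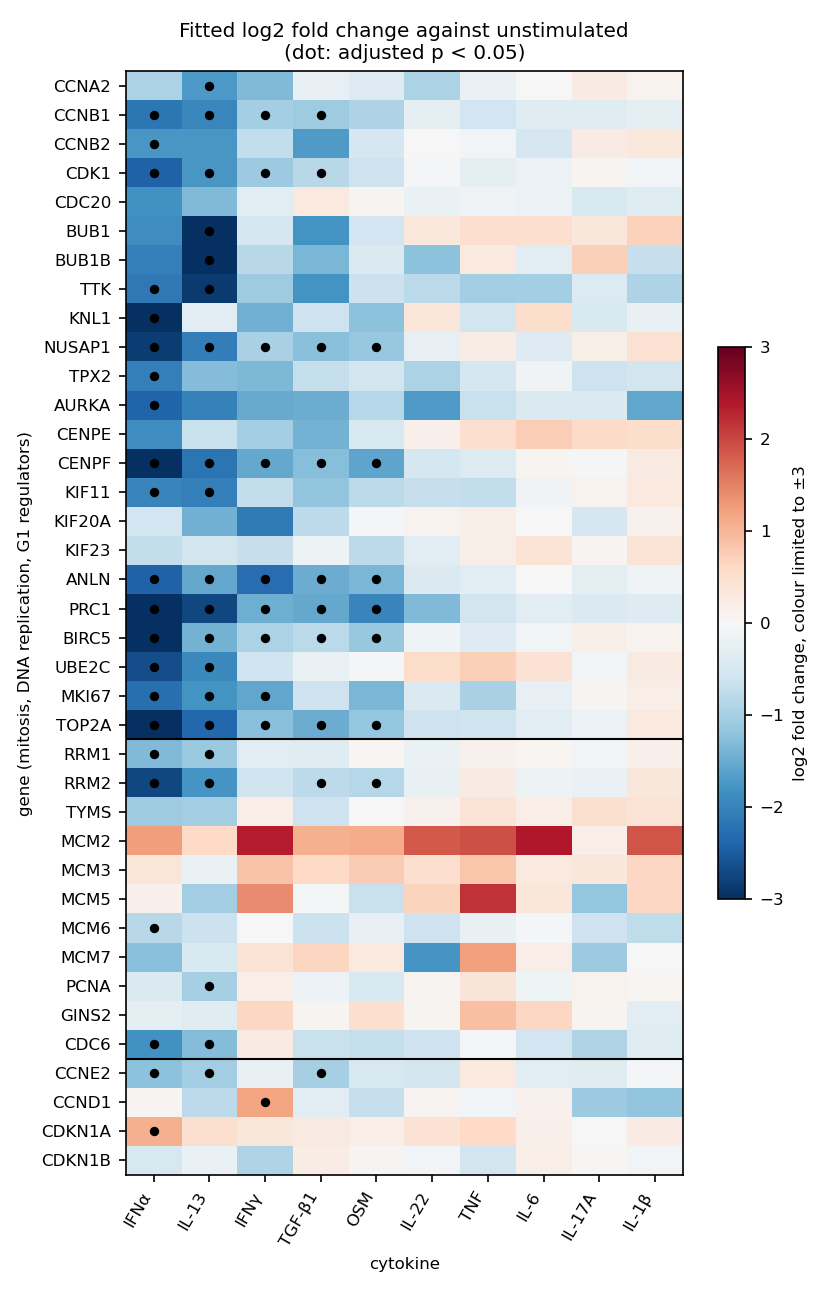
Fitted log2 fold change of the 38 tested genes (vertical axis, by role) after each of the 10 cytokines (horizontal axis) against unstimulated cells, with colour limited to 3 in either direction and a dot where adjusted p was under 0.05. The dots fill the upper block, of mitosis genes, in the columns of IFNα and IL-13, thin out for IFNγ, TGF-β1 and OSM, and are absent from the columns of the other 5 cytokines.

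Both classes were counted apart. Of the 23 mitosis genes tested, 16 fell after IFNα, 15 after IL-13, 9 after IFNγ, 8 after TGF-β1 and 6 after OSM, and the log2 fold change was negative in all 23 after IFNα, IL-13 and IFNγ and in 22 after TGF-β1 and OSM. The median over mitosis genes was -2.18 after IFNα, -1.80 after IL-13, -1.20 after TGF-β1, -1.08 after IFNγ and -0.77 after OSM, while the median over all genes tested lay between -0.05 and 0.002 for these cytokines. Of the 11 replication genes tested, 4 fell after IFNα, 4 after IL-13, 1 after TGF-β1 and 1 after OSM. After IFNγ edgeR called 0 replication genes, with 3 at an unadjusted p under 0.05 and 0 by DESeq2, and their median was 0.27.

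Summed over the 25 mitosis genes, the level in unstimulated cells was 1148 ± 131 CPM (SD, n = 4), with a range of 995 to 1266. It was 205 ± 27.9 CPM after IFNα, which is 17.9% of the unstimulated level, and 334 ± 36.1 CPM (29.1%) after IL-13. IFNγ left 45.0%, TGF-β1 47.8% and OSM 51.0%. The 4 libraries of each of these 5 groups lay below all 4 unstimulated libraries. The other groups overlapped with unstimulated cells, at 78.4% after IL-22, 84.1% after TNF, 91.8% after IL-6, 98.5% after IL-17A and 108.7% after IL-1β. The sum does not rest on single genes, since TOP2A and NUSAP1, the most abundant, made up 14.0% and 13.4% of it.

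The 13 replication genes together stood at 585 ± 105 CPM in unstimulated cells. After IFNα they were at 281 ± 40.2 CPM (48.1%) and after IL-13 at 283 ± 61.9 CPM (48.4%), both without overlap with unstimulated libraries. Every other group overlapped, from 76.2% after TGF-β1 to 120.2% after TNF. After IFNγ mitosis genes were at 45.0% and replication genes at 99.6% of unstimulated cells. The replication genes moved both ways there, with a negative log2 fold change in 3 of the 11 tested. On the log2 scale the sums were -1.15 and -0.0065 after IFNγ, and -2.48 and -1.06 after IFNα. IFNα and IL-13 gave nearly the same replication sum, although their mitosis sums did not overlap. PCNA and RRM1, the most abundant, made up 23.0% and 20.2% of the replication sum. Sums over genes were not tested.

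**Figure D2:**
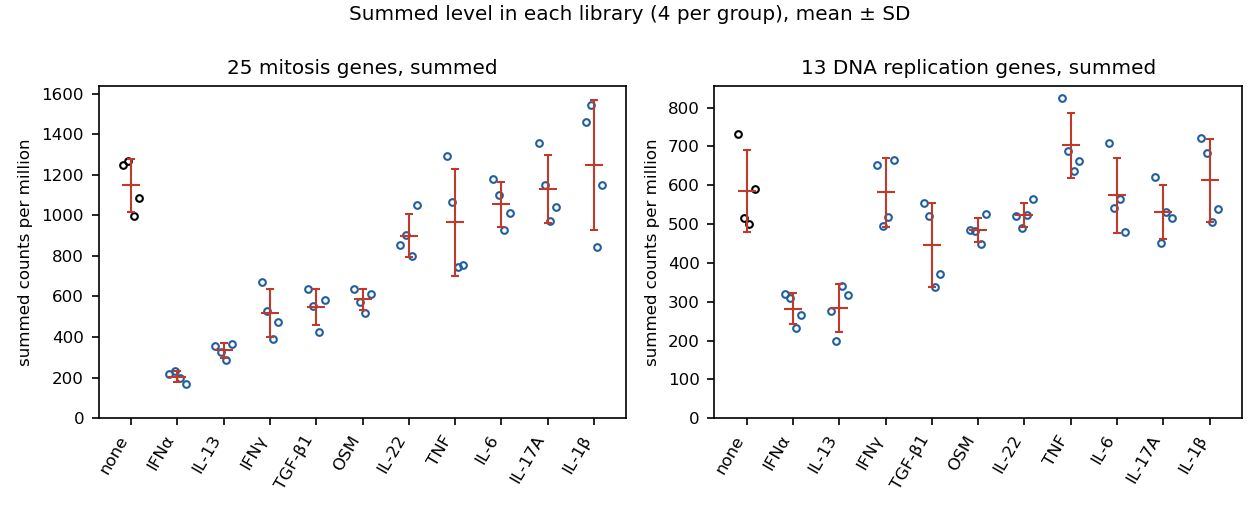
Summed level in CPM (vertical axis, from 0) of the 25 mitosis genes (left) and the 13 DNA replication genes (right) in each library (open circles, 4 per group), with the mean and SD in red; "none" marks unstimulated cells. In the left panel 5 groups lie wholly below the unstimulated libraries, which ranged from 995 to 1266, and in the right panel only the groups of IFNα and IL-13 do.

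Of the 38 members tested, 23 of which act in mitosis, 6 fell after each of the 5 cytokines. These were TOP2A, NUSAP1, CENPF, ANLN, PRC1 and BIRC5, all of mitosis. The share of all genes tested that fell after all 5 is not given here, so the number 6 is not read against it. For TOP2A, the CPM in the unstimulated libraries were 194, 200.5, 144 and 179. They were 17.6, 23.0, 9.53 and 11.2 after IFNα, and 33.2, 44.0, 25.4 and 37.3 after IL-13. All 8 libraries lay far below the lowest unstimulated one, and the log2 fold changes were -3.53 ± 0.33 (SE, adjusted p = 2.07e-11) and -2.37 ± 0.31 (adjusted p = 6.35e-07). After IFNγ the CPM of TOP2A were 123, 59.8, 62.4 and 57.7, after TGF-β1 80.3, 53.2, 46.3 and 74.9, and after OSM 72.5, 91.3, 77.4 and 79.2. These 3 groups overlapped among themselves and lay below the unstimulated libraries, with log2 fold changes of -1.24, -1.49 and -1.16 (adjusted p = 0.00259, 0.000855 and 0.0105).

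PRC1, which bundles the microtubules of the central spindle, had the largest fitted change of the 14 genes chosen by fold change for description by library. Its CPM were 44.1, 26.3, 31.0 and 28.7 without stimulation and 3.31, 2.63, 0 and 0.623 after IFNα, a log2 fold change of -4.17 ± 0.55 (adjusted p = 1.77e-07). After IL-13 they were 7.30, 5.41, 2.31 and 4.44 (log2 fold change -2.73 ± 0.49, adjusted p = 0.000248), and after OSM 11.0, 4.74, 8.67 and 8.25 (-1.99 ± 0.46, adjusted p = 0.00575). No library of these groups reached the unstimulated range. After TGF-β1 a single library, at 0.907 CPM, stood far below the others, at 11.0 to 19.1.

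CENPF, a large protein of the outer kinetochore, was at 86.7, 120.3, 81.6 and 83.3 CPM in unstimulated cells and at 6.61, 17.1, 10.3 and 5.61 CPM after IFNα (log2 fold change -3.23 ± 0.35, adjusted p = 1.31e-09). Its mean was 20.6 ± 6.42 CPM after IL-13, 30.8 after OSM (range 25.6 to 36.8), 31.8 ± 14.7 after IFNγ and 38.5 ± 10.1 after TGF-β1 (SD, n = 4), and the highest library of these 4 groups, at 50.5 CPM, was below the lowest unstimulated one. BIRC5 encodes survivin, a subunit of the chromosomal passenger complex. Its CPM were 109.7, 120.3, 137 and 117 without stimulation and 7.71, 12.5, 31.0 and 8.72 after IFNα (log2 fold change -3.05 ± 0.29, adjusted p = 2.41e-11). The other falls of BIRC5 were smaller, from -1.41 after IL-13 to -0.81 after TGF-β1, where the adjusted p was 0.0477 and was lost on leaving out any 1 of the 8 libraries.

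NUSAP1, which binds spindle microtubules near chromosomes, was at 138, 171, 134 and 137 CPM in unstimulated cells and at 16.0, 36.9, 19.9 and 8.10 CPM after IFNα (log2 fold change -2.84 ± 0.35, adjusted p = 2.99e-08). After IL-13 it was at 35.2, 30.1, 29.4 and 42.6 CPM (-2.08 ± 0.33, adjusted p = 3.75e-05). IFNγ libraries spread from 30.3 to 115 CPM and just passed (-0.98 ± 0.32, adjusted p = 0.0352). An overlapping transcript on the same strand, OIP5-AS1, had 29.2% as many counts as NUSAP1, and reads of both may be shared.

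ANLN, the scaffold of the contractile ring, fell after both interferons, to overlapping levels. Its CPM were 104, 99.2, 73.2 and 58.7 without stimulation. They were 23.7, 17.8, 15.9 and 4.98 after IFNα and 17.3, 12.5, 11.3 and 27.1 after IFNγ, and the groups overlapped. The log2 fold changes were -2.42 ± 0.35 (adjusted p = 9.95e-07) and -2.28 ± 0.35 (adjusted p = 4.45e-06), and the direct difference was -0.14 ± 0.37. ANLN was at 32.5 ± 5.85 CPM after OSM, 29.5 ± 9.40 after TGF-β1 and 29.1 ± 6.60 after IL-13. It was the only gene of the 6 whose 5 calls held in all 15 other fits made for each, 8 of which left out 1 library.

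**Figure D3:**
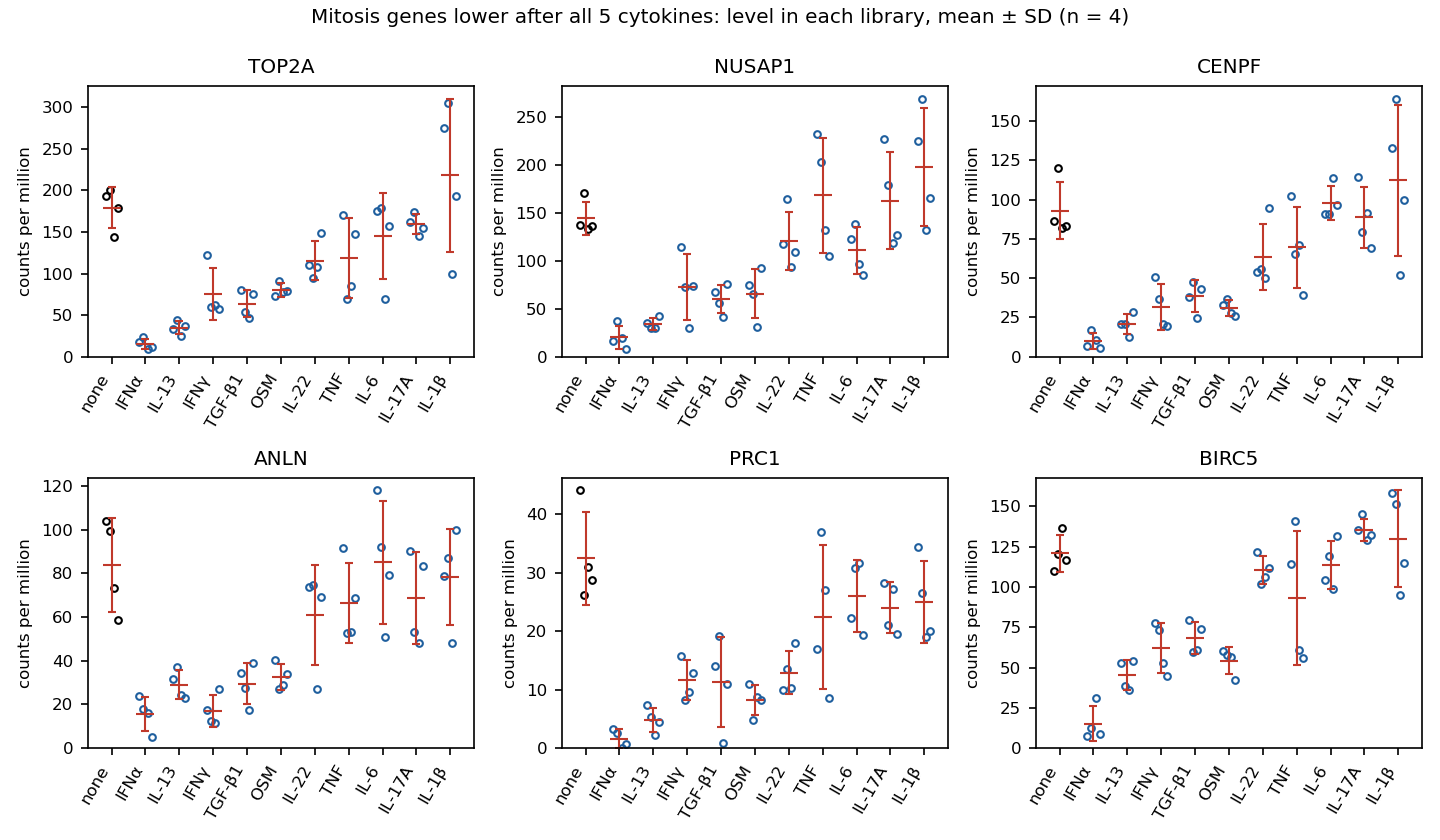
Level in CPM (vertical axis, from 0) of TOP2A, NUSAP1, CENPF, ANLN, PRC1 and BIRC5 in each library (open circles, 4 per group, horizontal axis), with the mean and SD in red; "none" marks unstimulated cells. IFNα gave the lowest mean in all 6 panels, and its libraries overlap with those of IFNγ for ANLN, at 4.98 to 23.7 and 11.3 to 27.1, and for NUSAP1, at 8.10 to 36.9 and 30.3 to 115.

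CDK1 and CCNB1 encode the kinase and the cyclin whose complex starts mitosis, and both fell after 4 cytokines. CDK1 was at 120.5, 155, 108 and 136 CPM without stimulation, at 28.7, 19.8, 23.0 and 24.3 after IFNα, and at 44.5, 33.2, 27.1 and 49.7 after IL-13. The log2 fold changes were -2.43 ± 0.27 (adjusted p = 3.31e-09) and -1.76 ± 0.27 (adjusted p = 1.10e-05), against -1.09 ± 0.26 after IFNγ (adjusted p = 0.00289) and -0.84 ± 0.26 after TGF-β1 (adjusted p = 0.0386). CCNB1 was at 68.1, 82.4, 58.4 and 82.0 CPM without stimulation and at 23.7, 9.88, 9.53 and 19.9 after IFNα (-2.18 ± 0.33, adjusted p = 3.94e-06). After IL-13 its libraries spread from 5.31 to 35.5 CPM (-1.97 ± 0.33, adjusted p = 8.89e-05). After OSM neither gene passed edgeR's test, at 85.0 ± 5.11 CPM for CDK1 (adjusted p = 0.203) and 38.0 ± 15.3 CPM for CCNB1 (adjusted p = 0.0861). DESeq2 called CCNB1 lower there.

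MKI67, whose protein coats mitotic chromosomes and marks cycling cells, was at 27.9, 29.2, 30.3 and 33.5 CPM without stimulation. It was at 3.31, 1.98, 9.53 and 10.6 CPM after IFNα (log2 fold change -2.25 ± 0.47, adjusted p = 0.000494), at 5.97, 9.27, 5.77 and 14.2 after IL-13 (-1.80 ± 0.46, adjusted p = 0.0143) and at 11.3, 8.31, 13.0 and 8.54 after IFNγ (-1.55 ± 0.45, adjusted p = 0.0186). All 12 of these libraries lay below the unstimulated range. After OSM, MKI67 was at 11.6 ± 6.12 CPM and did not pass edgeR's test (adjusted p = 0.0677), and after TGF-β1 at 19.4 ± 6.59 (adjusted p = 0.473). DESeq2 called MKI67 lower after OSM.

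Among less abundant mitosis genes, KIF11, TTK, UBE2C and AURKA fell after IFNα, and the first 3 fell after IL-13 too. KIF11, the motor that pushes spindle poles apart, was at 24.0, 33.5, 24.6 and 30.1 CPM without stimulation, at 6.61, 11.2, 4.77 and 5.61 after IFNα and at 9.29, 0.772, 7.50 and 8.88 after IL-13. TTK, a kinase of the spindle checkpoint, was at 26.4, 24.8, 20.4 and 33.5 CPM without stimulation, at 6.61, 8.56, 2.38 and 5.61 after IFNα and at 1.33, 0, 11.5 and 0 after IL-13. The groups did not overlap for KIF11 (adjusted p = 0.0149 and 0.0269) or TTK (adjusted p = 0.0313 and 0.0122). UBE2C, the ubiquitin-conjugating enzyme of the anaphase-promoting complex, varied widely without stimulation, at 40.6, 20.4, 9.85 and 6.15 CPM. It was at 5.51, 3.95, 2.38 and 0 CPM after IFNα, below that range (adjusted p = 0.00132), and at 8.63, 0, 7.50 and 3.55 after IL-13, which overlapped it (adjusted p = 0.0406). AURKA, the kinase of the spindle poles, was at 29.9, 12.4, 12.7 and 32.8 CPM without stimulation and at 6.61, 2.63, 2.38 and 4.36 after IFNα (log2 fold change -2.41 ± 0.68, adjusted p = 0.0132).

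The rest of the mitosis genes are named here after their values were seen. CCNB2, TPX2 and KNL1 fell after IFNα, and CCNA2, BUB1 and BUB1B after IL-13. KNL1, a platform of the kinetochore, had at most 1 count in any IFNα library and was at least 4.19-fold lower there than without stimulation. That limit was 2.52-fold without the unstimulated replicate 1, where the call was lost too (adjusted p = 0.0543). The checkpoint genes BUB1 and BUB1B were at least 3.03-fold and 4.43-fold lower after IL-13. The limit for BUB1 was 2.17-fold without the unstimulated replicate 1, and that for BUB1B 3.31-fold without the unstimulated replicate 3. Their calls were lost in 6 and 5 of 8 fits that left out 1 library. CCNA2, which encodes cyclin A2, shares exon sequence with EXOSC9 on the opposite strand, which had 6211 counts against 752, and its fall after IL-13 (adjusted p = 0.0462) is uncertain. The call was also lost in 6 of 8 fits that left out 1 library, with all genes of any count, with the replicate number as a block and with GC offsets. Among the 38 tested genes CDC20, CENPE, KIF20A and KIF23 were the mitosis genes that passed after no cytokine, CENPE being at 7.05 ± 5.06 CPM after IFNα against 26.2 ± 7.38 without (adjusted p = 0.0674).

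Of the genes that could not be tested, AURKB had 148 counts over all 44 libraries, MCM4 75, CDT1 56 and PLK1 28. PLK1, a kinase of mitotic entry, was at 0 in 32 libraries, including all 4 unstimulated ones. Genes rich in G and C were low throughout: 7 of 8 members with a GC content of at least 55% (CDC20, AURKB, PLK1, MCM2, MCM5, MCM7 and CDT1, but not CDKN1A) had a mean under 10 CPM, against 6 of 34 members below 55%. The same held for protein-coding genes at large, whose median fell from 24.1 CPM in the tenth of lowest GC content to 0.192 CPM in the tenth of highest. Across the 42 members the rank correlation between GC content and CPM per kilobase of transcript was -0.33, given as a description, since all points share the same libraries.

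GC content also moved with the differences. Across 9491 tested genes the log2 fold change rose with GC content after IFNγ and OSM (rank correlation 0.32 each), and less so after TGF-β1 (0.23), IFNα (0.16) and IL-13 (0.09). With offsets that remove this trend, an alternative chosen after seeing the data, 21 members fell after IFNα, 18 after IL-13, 7 after IFNγ, 7 after OSM and 6 after TGF-β1. Of the 6 genes that fell after all 5 cytokines, all but NUSAP1, which was lost after IFNγ, kept their calls.

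The counts after TGF-β1, IFNγ and IL-13 depended on single libraries. Without the unstimulated replicate 2 or the TGF-β1 replicate 3, 2 members were called after TGF-β1 in place of 10, and without the unstimulated replicate 4 or the TGF-β1 replicate 4, 6. Leaving out the IFNγ replicate 3 or 4 left 6 or 5 calls of 10 after IFNγ, and leaving out the IL-13 replicate 2 left 11 of 20 after IL-13. After IFNα, 17 to 22 members were called whichever library was left out. Of the 69 calls made, 34 held in every fit that tested them, namely 14 of 22 after IFNα, 10 of 20 after IL-13, 4 of 10 after IFNγ, 4 of 7 after OSM and 2 of 10 after TGF-β1. With only the 8 libraries compared, 64 of the 69 were tested, and UBE2C after IFNα, among the 34, was not. No call changed its sign. In 4 or more of the 8 fits that left out 1 library, 18 of the 69 calls were lost, among them those of TTK and MCM6 after IFNα, NUSAP1 after IFNγ and OSM, UBE2C, BUB1 and BUB1B after IL-13, and PRC1, BIRC5, CDK1 and CCNB1 after TGF-β1.

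Among replication genes, RRM2, the small subunit of ribonucleotide reductase, fell most. It was at 175, 139, 99.2 and 117 CPM without stimulation, at 28.1, 21.1, 10.3 and 18.7 after IFNα (log2 fold change -2.74 ± 0.24, adjusted p = 2.80e-12) and at 35.2, 37.8, 48.5 and 32.9 after IL-13 (-1.78 ± 0.23, adjusted p = 5.63e-07). It fell less after OSM (-0.85 ± 0.22, adjusted p = 0.0145) and TGF-β1 (-0.79 ± 0.22, adjusted p = 0.0218), where all 8 libraries, at 64.6 to 88.1 CPM, were still below the lowest unstimulated one. Of 8 fits that left out 1 library, 2 lost the call after OSM and 4 that after TGF-β1. The latter was also lost with only the 8 libraries compared and with GC offsets. After IFNγ RRM2 was at 88.0 ± 19.8 CPM against 133 ± 32.8 without, and did not pass (adjusted p = 0.0718).

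The other replication genes and the G1 regulators were chosen for description after their values were seen. RRM1 and CDC6, which loads the helicase onto origins, fell after IFNα and IL-13. RRM1 went from 119 ± 23.1 CPM to 47.3 ± 11.8 (adjusted p = 0.000245) and 54.8 ± 16.2 (adjusted p = 0.00654), and CDC6 from 40.8 ± 15.9 to 11.5 ± 3.61 (adjusted p = 7.42e-05) and 16.6 ± 8.28 (adjusted p = 0.0118). After IL-17A CDC6 was at 21.7 ± 5.56 CPM, below all unstimulated libraries, and did not pass (adjusted p = 0.156). MCM6 fell after IFNα, from 90.3 ± 16.0 to 50.6 ± 7.95 CPM (adjusted p = 0.0274), a call lost in 5 of 8 fits that left out 1 library. PCNA, the clamp that holds polymerases on DNA, fell after IL-13, where its CPM were 63.7, 34.7, 75.0 and 73.7 against 129, 93.3, 131 and 143 without stimulation (adjusted p = 0.0015). After IFNα PCNA was at 91.1 ± 15.3 CPM and did not pass (adjusted p = 0.176).

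TYMS, MCM2, MCM3, MCM5, MCM7 and GINS2 passed edgeR's test after no cytokine. TYMS, which makes thymidylate, was at 14.8 ± 7.97 CPM after IFNα against 31.0 ± 2.61 (adjusted p = 0.0504), and was called lower there by DESeq2 and with GC offsets. TYMS, MCM7 and GINS2 overlap exons of ENOSF1, AP4M1 and GSE1 on the opposite strand, and the use of strand is not stated. MCM2, another helicase subunit, had the largest positive fitted log2 fold changes against unstimulated cells, 2.41 after IL-6 and 2.36 after IFNγ. Neither passed, and MCM2 was low, at 9.08 ± 8.38 CPM after IFNγ against 1.69 ± 1.29 (adjusted p = 0.133).

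The 4 G1 regulators went separate ways. CCNE2, the cyclin E2 that activates CDK2 at the start of S phase, was at 146, 169, 113 and 108 CPM without stimulation. It fell to 76.6, 72.4, 35.0 and 43.6 CPM after IFNα (log2 fold change -1.23 ± 0.27, adjusted p = 0.000918), 85.0, 65.6, 57.1 and 53.3 after IL-13 (-1.04 ± 0.27, adjusted p = 0.0153) and 75.6, 84.0, 52.6 and 58.0 after TGF-β1 (-0.99 ± 0.27, adjusted p = 0.0176). All 12 libraries lay below the unstimulated ones. Of 8 fits that left out 1 library, 4 lost the call after IL-13 and 3 that after TGF-β1, and GC offsets ended both. INTS8, which overlaps CCNE2 on the opposite strand, had 71.2% as many counts, so that part of this signal may not be from CCNE2.

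CDKN1A encodes p21, an inhibitor of cyclin-dependent kinases, and was the only member that rose after IFNα. Its CPM were 29.4, 24.8, 21.8 and 14.3 without stimulation and 47.9, 58.6, 54.8 and 30.5 after IFNα, without overlap (log2 fold change 1.08 ± 0.29, adjusted p = 0.00862). The call was lost without the unstimulated replicate 4. Against IFNγ directly, where CDKN1A was at 28.9 ± 3.03 CPM, the difference of 0.73 ± 0.29 did not pass (adjusted p = 0.111). CDKN1B, which encodes the inhibitor p27, was at 9.14 ± 8.12 CPM without stimulation and passed after no cytokine.

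CCND1, the cyclin D1 that responds to growth signals, was the only member that rose after IFNγ. Its libraries varied more than those of most members, at 172, 83.1, 33.1 and 76.5 CPM without stimulation and 197, 111, 209 and 322 after IFNγ, so that the groups overlapped (log2 fold change 1.19 ± 0.37, adjusted p = 0.0303). Leaving out any of 5 libraries ended that call. CCND1 was at 97.2 ± 28.0 CPM after IFNα (adjusted p = 0.938) and, at the other end, at 40.3 ± 20.3 after IL-1β (adjusted p = 0.0521).

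**Figure D4:**
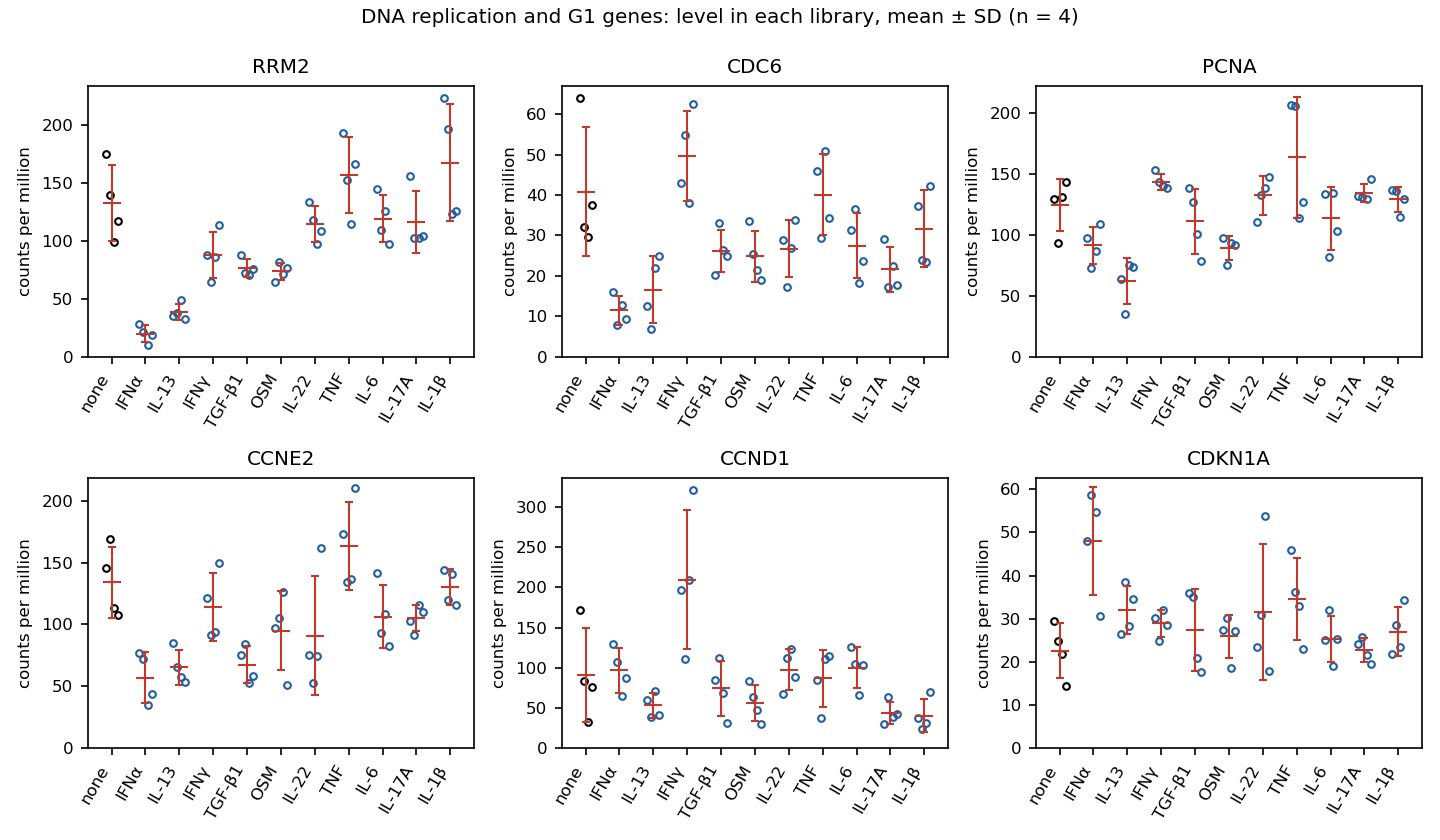
Level in CPM (vertical axis, from 0) of the replication genes RRM2, CDC6 and PCNA and the G1 genes CCNE2, CCND1 and CDKN1A in each library (open circles, 4 per group, horizontal axis), with the mean and SD in red; "none" marks unstimulated cells. RRM2 and CDC6 are low after IFNα and IL-13, CCND1 is highest after IFNγ, where it reached 322, and CDKN1A is highest on average after IFNα.

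Since passing after 1 cytokine and not after another does not show a difference, 6 pairs of cytokines were contrasted directly in the same model. IFNα and IFNγ are both interferons, of type I and type II, and act through different receptors. Compared with IFNγ, IFNα left 15 of 38 genes lower, or 39.5%, against 4.46% of all genes tested, and 10 to 16 genes in fits that left out 1 library. These were 8 mitosis genes, 6 replication genes and CCNE2. RRM2 differed most clearly (-2.15 ± 0.24 on the log2 scale, adjusted p = 9.54e-09), followed by BIRC5 (-2.10 ± 0.29, adjusted p = 1.23e-06), TOP2A (-2.28 ± 0.33, adjusted p = 2.95e-06) and CDC6 (-2.10 ± 0.33, adjusted p = 1.48e-05). CDC6 was at 49.6 ± 11.2 CPM after IFNγ, above its mean without stimulation, against 11.5 ± 3.61 after IFNα. TYMS, which had missed the threshold against unstimulated cells, was lower after IFNα than after IFNγ (-1.26 ± 0.36, adjusted p = 0.0183). PCNA was lower too, at 91.1 ± 15.3 against 143 ± 6.66 CPM (adjusted p = 0.0307), without overlap.

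**Figure D5:**
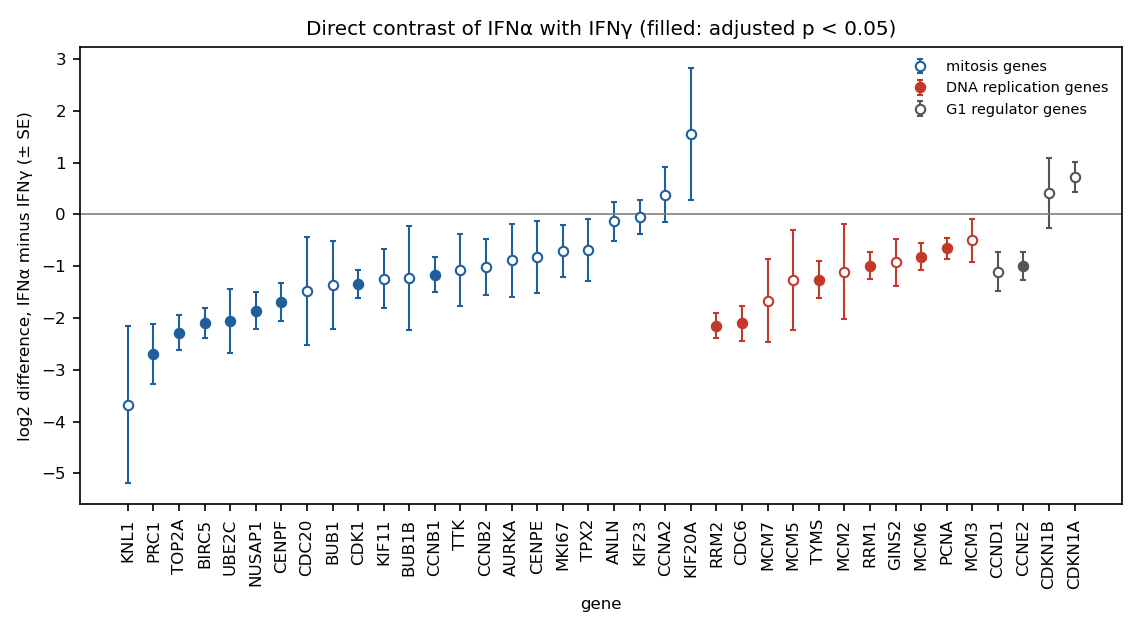
Difference on the log2 scale between IFNα and IFNγ (vertical axis, ± SE) for each of the 38 tested genes (horizontal axis), coloured by role and filled where adjusted p was under 0.05. All 11 replication genes lie below 0, RRM2 and CDC6 furthest at -2.15 and -2.10, while ANLN and KIF23 lie close to 0.

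TGF-β1 lowered fewer members than IL-13 when each was set against unstimulated cells. Directly, 4 of 38 members, or 10.5%, were higher after TGF-β1 than after IL-13, against 6.05% of all genes. A count this near the share at large is not read as a result about the members as a set. RRM2 was at 76.7 ± 7.87 against 38.6 ± 6.90 CPM (0.98 ± 0.23 on the log2 scale, adjusted p = 0.00243), and PCNA at 111 ± 26.7 against 61.8 ± 18.7 (0.84 ± 0.21, adjusted p = 0.00416), both without overlap. CDK1 and UBE2C differed with overlap between libraries (adjusted p = 0.0175 and 0.0387). Without the IL-13 replicate 2 the count was 2, and without the TGF-β1 replicate 3 it was 7.

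OSM and IL-6 belong to the same cytokine family and signal through a shared receptor chain. OSM left 5 of 38 members lower than IL-6 did, or 13.2%, against 1.68% of all genes, and all 5 were mitosis genes. CENPF was at 25.6 to 36.8 CPM after OSM and at 90.8 to 114 after IL-6 (-1.66 ± 0.31, adjusted p = 0.000564). ANLN (-1.39 ± 0.33), PRC1 (-1.66 ± 0.46) and BIRC5 (-1.06 ± 0.26) also differed without overlap. KIF23, a motor of cytokinesis that passed in no contrast with unstimulated cells, was at 24.8 ± 6.39 CPM after OSM against 56.8 ± 2.76 after IL-6 (adjusted p = 0.0229). The count fell to 2 without the IL-6 replicate 1 or the OSM replicate 4, and to 3 without the OSM replicate 2 or 3.

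After TNF, 5 of 38 members were higher than after IFNγ (13.2%, against 3.5% of all genes) and 1, CCND1, was lower (2.63%, against 4.51%). ANLN was at 66.5 ± 18.4 CPM after TNF and 17.0 ± 7.18 after IFNγ (1.95 ± 0.35, adjusted p = 7.61e-05), and RRM2 at 157 ± 32.5 against 88.0 ± 19.8 (adjusted p = 0.00899), both without overlap, while CDK1, NUSAP1 and CENPF overlapped. Without the TNF replicate 1 only 1 of the 6 calls was made, and without the IFNγ replicate 3 or 4, 3. TGF-β1 left 4 members (10.5%) lower than TNF, against 3.2% of all genes, namely NUSAP1, ANLN, RRM2 and CCNE2, and 7 without the TNF replicate 3. CCNE2 was at 67.6 ± 14.7 CPM after TGF-β1 and at 163.5 ± 35.7 after TNF (-1.28 ± 0.27, adjusted p = 0.00101). Between TNF and IL-1β, which differed in 1.15% of all genes, edgeR and DESeq2 both called 0 members (8 without an adjusted p in DESeq2), with 6 at an unadjusted p under 0.05 and 1 call without the IL-1β replicate 3.

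Within groups, most pairs of genes varied together only weakly, though 1 pair of mitosis genes reached a correlation of 0.65. After subtraction of the group means, the median Pearson correlation was 0.19 over 36 pairs among 9 abundant mitosis genes, 0.22 over 21 pairs among 7 replication genes and 0.08 over 63 pairs between both kinds. These values describe 44 libraries and share their depth. Within groups the deviations of the summed mitosis and replication levels correlated at 0.54, and at 0.20 and 0.12 with the library total. The library numbered 3 had the lowest mitosis sum in 10 of 11 groups, and the meaning of that number is not given in the labels.

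Further genes of the same processes were counted in the same way. Of 37 further mitosis genes, 32 were tested, and 24 fell after IFNα, 18 after IL-13, 4 after IFNγ, 4 after OSM and 3 after TGF-β1. The shares of all genes tested that fell were 4.86%, 2.4%, 5.13%, 2.54% and 3.08%, in the same order. SPAG5, KIF2C and NEK2 had at most 3 counts in any IFNα library and were at least 4.81-fold, 3.74-fold and 3.81-fold lower, and DLGAP5, a spindle protein, fell by 3.32 on the log2 scale (adjusted p = 0.000318). After IL-13 the largest falls were those of DLGAP5 (-3.05), HMMR (-2.40), KIF14 (-2.32) and NDC80 (-2.24), the latter a kinetochore protein that grips microtubules. KIF14 (-2.31), ASPM (-1.64), CKAP2 (-0.84) and the condensin subunit SMC4 (-0.65) fell after IFNγ, PTTG1 (-1.05), SMC4 (-0.88), CKS1B (-0.82) and SMC2 (-0.68) after OSM, and DLGAP5 (-2.68), SPC25 (-1.63) and SMC2 (-0.88) after TGF-β1. In the other direction PTTG1, which encodes securin, rose after IL-1β (0.68 ± 0.22, adjusted p = 0.0483) and CKS1B after TNF (0.51 ± 0.17, adjusted p = 0.0423).

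Of 40 further replication genes, 33 were tested, and 7 fell after IFNα, 7 after IL-13, 5 after TGF-β1 and 3 after OSM. The shares of all genes tested that fell were 4.86%, 2.4%, 3.08% and 2.54%, in the same order. CLSPN, which relays stalled-fork signals, fell after IFNα (-2.11 ± 0.34), TGF-β1 (-1.65 ± 0.33) and OSM (-1.30 ± 0.32). RFC3, of the clamp loader, fell after IFNα (-1.69), OSM (-1.41), IL-13 (-1.26) and TGF-β1 (-1.19). After IFNγ, where 5.13% of all genes fell, edgeR called 0 of the 33, with 3 at an unadjusted p under 0.05, and their median was 0.04. GMNN, the inhibitor of licensing known as geminin, rose after TNF (0.54 ± 0.18, adjusted p = 0.0387).

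Regulators of these genes were counted as well. Of 20 cell cycle transcription factors, 14 were tested, and edgeR called 0 after IFNα and 0 after IL-13, with 5 and 3 at an unadjusted p under 0.05. Over all genes tested, 4.86% fell and 4.99% rose after IFNα, and 2.4% fell and 1.53% rose after IL-13. At these shares, 0 of 14 is not read as a difference from genes at large. After TNF and IL-1β edgeR called 1 each, where 11.5% and 7.38% of all genes changed. After IFNγ it called 2, where 5.13% of all genes fell and 5.52% rose. Such counts are not read as a result about these factors as a set. LIN54, the subunit of the DREAM complex that reads the CHR, fell after TNF from 34.9 ± 3.88 to 17.6 ± 5.45 CPM (adjusted p = 0.0436). E2F7 was at least 5.10-fold lower after IFNγ, and E2F3, at 0 in all unstimulated libraries, was at least 4.89-fold higher after IL-1β and 4.64-fold higher after IFNγ. Of 18 other cyclins, kinases and inhibitors, 12 were tested. Of these, 1 was called after IFNα, 1 after IFNγ, and 1 lower and 1 higher after TGF-β1, where 3.08% of all genes fell and 2.61% rose. These counts are likewise not read as a result about the set. TGF-β1 raised CDKN2B, which encodes the CDK4 and CDK6 inhibitor p15, from 15.8 ± 6.84 to 54.3 ± 19.6 CPM (1.77 ± 0.46, adjusted p = 0.0137). It lowered SKP2, the F-box protein that marks p27 for destruction, from 47.6 ± 10.7 to 14.2 ± 4.27 CPM (-1.73 ± 0.34, adjusted p = 0.000863). CDK6 fell after IFNγ (-1.07 ± 0.28, adjusted p = 0.00861) and CDKN3, a phosphatase of CDK1 and CDK2, after IFNα, from 28.3 ± 4.61 to 3.46 ± 0.92 CPM (adjusted p = 6.02e-06).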

How the data were processed

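Per the labels, Ccd-18Co RNA was prepared with a NEBNext Ultra II RNA kit and sequenced on an Illumina NovaSeq. The submitters' processing notes name FastQC (0.11.9), MultiQC (1.14), kallisto (0.48.0) and build hg38. The authors deposited estimated counts per gene symbol and library, not scaled for depth (5.77% of values were not whole). The transcriptome release, the step to gene symbols and the use of strand are not given in the sources used here, so genes that overlap others may share reads.

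The estimated counts were rounded. Genes were kept by edgeR's filterByExpr (minimum count 10, here 6.75 CPM in at least 4 libraries), scaled by TMM, and fitted with edgeR (4.0.16, R 4.3.3) in 1 quasi-likelihood model over 44 libraries and 11 groups (common biological coefficient of variation 0.331). Each contrast had its own Benjamini-Hochberg adjustment. The threshold was an adjusted p of 0.05, and calls with an absolute log2 fold change above 1.5 were counted apart, as in the study's methods. The tests are two-sided. Where all libraries of a group had at most 3 counts, the fold is a lower bound against 3 counts per library. Counts measure reads, not molecules, so such limits cover counting error only. Among 66 replicate pairs 0 were identical, and the lowest chi-square per degree of freedom was 3.21.

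The members and the other gene lists were chosen with earlier results of these data known. By rule, values by library are given for at most 14 members that passed. These had the largest absolute log2 fold change and a mean log2 CPM of at least 4 in a group. PCNA, CCNE2, CDKN1A and CCND1, chosen after their values were seen, are also given by library. From other lists at most 4 genes per cytokine are named. These lists were further mitosis genes, further replication genes, cell cycle transcription factors, other cyclins, kinases and inhibitors, p53 targets, and markers of fibroblasts, epithelium, leukocytes and endothelium. Gene lengths, GC content and overlaps came from GENCODE release 44, promoters from RefSeq. Code was tested on simulated data. Alternatives were DESeq2 (1.42.0), its size factors, other filters, fold thresholds, only the libraries compared, a replicate block, leaving out each library and, added after seeing the data, GC offsets.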

Additional observations from a re-analysis of the deposited data

Results flagged for a closer look

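Within groups of 4, a library was marked when its gap to the nearest other exceeded Dixon's critical value. Of 242 groups examined (22 measures: library totals, both sums and 19 members, by 11 groups) 14 were marked, against 12.1 that chance gives at about 1 in 20. Library totals gave 2 of them: the IL-1β replicate 1 had 2095807 counts against 1620541 to 1660473 in the others, and the IL-6 replicate 2 had 1486860 against 1612043 to 1627960. No summed level was marked.

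Several marked libraries bear on members described in the report. TOP2A was at 122.8 CPM in the IFNγ replicate 1 against 57.7 to 62.4 in the others, all below the unstimulated range. In unstimulated cells the replicate 2 stood above the others for CENPF (120.3 against 81.6 to 86.7) and NUSAP1 (170.6 against 134 to 138). TTK was at 11.54 CPM in the IL-13 replicate 3 against 0 to 1.33. AURKA was at 18.97 in the OSM replicate 2 against 9.14 to 10.7, and UBE2C at 12.37 in the OSM replicate 4 against 20.7 to 20.8 (20.68 and 20.75).

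The other marks fell in groups without calls. IL-22 libraries stood apart for CENPF (94.76 in replicate 4 against 49.99 to 55.8) and ANLN (26.92 in replicate 3 against 69.2 to 74.6), and the IL-6 replicate 3 for KIF11 (9.492 against 29.6 to 33.7). After IL-17A, the replicate 1 was higher for RRM2 (155.8 against 102 to 104) and RRM1 (147 against 97.1 to 103), and the replicate 4 for PCNA (145.3 against 129 to 132).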

How the results depend on the processing

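The direction of all 69 gene calls held in every fit that tested them, and 34 calls kept their threshold in all such fits. Counts of called members changed by more than 1.5 times as follows. After IL-1β, 1 was called instead of 0 with all genes of any count, with the replicate block, with only the 8 libraries compared and with GC offsets, and 2 with DESeq2. After IL-17A, 1 was called with all genes of any count. Beyond an absolute log2 fold change of 1.5, 3 remained after IFNγ, 2 after OSM and 1 after TGF-β1, and beyond 1, 6 after TGF-β1, as with GC offsets (6). OSM against IL-6 gave 8 and TNF against IFNγ gave 1 with only the 8 libraries, TGF-β1 against IL-13 gave 8 with DESeq2 and 8 with GC offsets, and TGF-β1 against TNF gave 7 with DESeq2. The cause of these changes was not tested, other than the stricter fold thresholds themselves. Without the 2 most abundant genes the log2 ratio of the mitosis sum after IFNα was -2.28 instead of -2.48, and with library totals alone that after IL-13 was -1.96 instead of -1.78.

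Leaving out 1 library gave 0 to 1 members after IL-1β, 0 to 2 after TNF, 17 to 22 after IFNα, 5 to 9 after IFNγ, 5 to 7 after OSM, 11 to 19 after IL-13 and 2 to 8 after TGF-β1. Between cytokines it gave 0 to 1 for TNF against IL-1β, 1 to 6 for TNF against IFNγ, 3 to 7 for TGF-β1 against TNF, 10 to 16 for IFNα against IFNγ, 2 to 5 for OSM against IL-6 and 2 to 7 for TGF-β1 against IL-13.

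The labels do not say what a replicate number marks. Over all genes 6 of 40 same-numbered pairs deviated together at a correlation over 0.1, so the numbers were not taken to pair the samples, although 20 of 44 libraries correlated best with their own number and number 3 had the lowest mitosis sum in 10 of 11 groups. With the replicate block 23 members were called after IFNα, 20 after IL-13, 11 after IFNγ, 11 after TGF-β1 and 7 after OSM. Depth limits members under about 6.75 CPM, where 3 counts in the shallowest library equal 3.85 CPM.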

Other observations

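Targets of p53, the factor that raises CDKN1A after DNA damage, were counted too. Of 21 such genes other than CDKN1A, 18 were tested, and 3 were called after IFNα, 2 after IFNγ and 1 after TGF-β1. Among all genes tested, 4.86% fell and 4.99% rose after IFNα, 5.13% and 5.52% after IFNγ, and 3.08% and 2.61% after TGF-β1. Counts of this size among 18 genes are not read as a result about p53 targets. After IFNα FAS, a death receptor, rose from 113 ± 33.9 to 265 ± 29.7 CPM (SD, n = 4; log2 fold change 1.24 ± 0.21, adjusted p = 1.95e-05) and AEN, a nuclease, from 22.7 ± 5.73 to 47.9 ± 3.69 CPM (1.08 ± 0.32, adjusted p = 0.019). ZMAT3, a zinc finger protein, fell by 2.24 on the log2 scale after IFNα (adjusted p = 5.05e-06) and by 1.11 after IFNγ (adjusted p = 0.0197), where GADD45A, which inhibits CDK1, fell by 1.27 (adjusted p = 0.00697). MDM2, the ligase that degrades p53, fell by 0.74 after TGF-β1 (adjusted p = 0.0304). The median over the 18 was 0.24 after IFNα and -0.31 after IL-13.

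Markers of other cell types moved in places. CD68, a lysosomal protein used as a macrophage marker, was the leukocyte marker that rose after the interferons, while PTPRC was at 0 in 35 of 44 libraries and TYROBP in all 44. KRT18, a keratin, fell from 10.2 ± 3.68 CPM to 1.39 ± 0.85 after IL-1β and 2.52 ± 1.23 after TNF, and was at least 5.20-fold lower after IL-17A. Of 10 fibroblast markers, 6 fell after TNF, 4 after IL-1β, 4 after TGF-β1 (THY1, COL3A1, COL1A2 and LUM), 3 after IFNα, 2 after IFNγ, 1 after IL-17A and 1 after IL-13 (PDGFRA). Among all genes tested, 11.5% changed in either direction after TNF, 7.38% after IL-1β and 1.52% after IL-17A. The shares that fell were 3.08% after TGF-β1, 4.86% after IFNα, 5.13% after IFNγ and 2.4% after IL-13. DCN rose after OSM (log2 fold change 0.56) and VIM after IL-13 (0.84), and no fibroblast marker was at 0 in any library. The part of these changes in the levels of cell cycle genes was not tested.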
